A study of Caenorhabditis elegans with 24 samples.

Results

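Free GFP-Dam libraries of Caenorhabditis elegans body wall muscle were used to ask whether the lamin substitution Y59C changed how accessible the genome was to a methyltransferase that is tethered to nothing. The comparison used 12 of the 24 libraries of a DamID study, those made with GFP-Dam. The 6 libraries with Y59C lamin were set against the 6 with wild-type lamin, matched on replicate number and on the state of the gene cec-4. The 12 others carried Dam fused to emerin (Dam-EMR) and appear here only beside named regions. Reads were counted by the authors in bins of 100 kb and of 10 kb over the ce11 genome.

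The groups were 3 libraries of a strain with the GFP-tagged lamin carrying Y59C (Y59C), 3 with the same lamin and the mutation cec-4(ok3124) (Y59C cec-4), 3 with the unmutated lamin under the same tag (GFP::LMN-1) and 3 with that lamin and cec-4(ok3124) (GFP::LMN-1 cec-4). All were L3/L4 larvae grown for 26 h at 22.5 °C without heat shock on bacteria that lack Dam. All 4 strains therefore carried a GFP lamin, a Dam fusion behind the un-induced promoter of hsp-16.41 and the FLP recombinase driven by the promoter of myo-3, a muscle myosin gene. Each genotype was a single strain, so a difference that a strain carries elsewhere in its genome and an effect of its genotype cannot be told apart. Whether the resident lmn-1 gene was intact is not stated in the sources used here. Whole larvae were digested, so fewer nuclei that express Dam and less methylation per nucleus cannot be told apart either.

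Lamin forms the meshwork under the inner nuclear membrane, and the equivalent substitution in human lamin A causes a form of Emery-Dreifuss muscular dystrophy. CEC-4 is a chromodomain protein that holds chromatin methylated on histone H3 lysine 9 at the nuclear envelope of worm cells. Dam methylates the adenine of GATC sites, DpnI cuts such sites only when they are methylated, and a freely diffusing Dam marks open chromatin more often than compact chromatin. Worm autosomes have gene-rich centres and arms rich in repeats and in large families of chemoreceptor, F-box and C-type lectin genes, and the arms lie close to the nuclear envelope.

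Libraries held 2728755 to 19442779 reads, with a median of 99 to 579 reads per 10 kb bin and 0.768 to 1.91% of these bins empty. Libraries of the same round were more alike than libraries of the same strain. Over 100 kb bins the median absolute log2 difference was 0.13 between matched Y59C and wild-type lamin libraries (6 pairs, range 0.10 to 0.18), 0.13 between matched cec-4 mutant and intact libraries, and 0.21 between replicates of a strain (12 pairs). Y59C cec-4 replicate 3 stood apart in the 100 kb counts. A single bin of chromosome III (6700001 to 6800000) took 20.9% of its reads, against 0.202 to 0.233% in the other 11 libraries. The 10 kb counts did not hold this excess. There the ribosomal DNA bin was the only one above 1% of the reads of any library. That bin took 37.8% of this library's reads, while the 100 kb bin around it took 30.0%. The cause of this difference between the counts was not tested. Mitochondrial reads numbered 0 to 14 per library.

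The muscle label was checked against marker genes. The 10 kb bins of 8 body wall muscle markers lay a median of 3.89 log2 units above the median bin (3.21 to 4.55 over libraries). The same value was −0.24 for 6 intestine markers, 0.90 for 5 hypodermis markers, 0.15 for 6 neuron markers, 0.27 for 4 pharyngeal muscle markers and 0.25 for 5 germline markers. The bin of unc-54, the main myosin heavy chain of body wall muscle, held 2120 to 6115 CPM (counts per bin scaled to a common library total), against 29.1 to 32.01 CPM in the median bin. The sample labels name body wall muscle while the study's design text names intestine, and by these medians the muscle markers stood above those of every other tissue listed, with hypodermis next and intestine lowest. Single markers varied. The muscle marker unc-120 lay at −0.21, and the other muscle markers at 2.70 (tni-1) to 7.05 (unc-54). The highest markers of other tissues were elt-7 of intestine (2.69) and lin-26 of hypodermis (2.18). A part of other tissues in the read-out was not tested.

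Few bins differed in accessibility to GFP-Dam between the lamins. With edgeR's quasi-likelihood test, replicate as a block and Benjamini-Hochberg adjustment, 0 of 1004 bins of 100 kb were called higher in the Y59C lamin libraries (0%) and 1 was called lower (0.0996%), at an adjusted p under 0.05. At an unadjusted p under 0.05 there were 26 higher bins (2.59%) and 34 lower bins (3.39%). At 100 kb DESeq2 called 1 bin higher and 2 lower, and voom with sample weights called 0 higher and 2 lower. At 10 kb, 2 of 9783 bins were called higher (0.0204%) and 0 lower (0%), and at an unadjusted p under 0.05 there were 189 higher (1.93%) and 217 lower (2.22%). At 10 kb DESeq2 called 2 bins higher and 4 lower, and voom called 2 higher and 1 lower.

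The differences, taken relative to the other bins, were also bounded from above. The scaling removes a shift shared by most bins, so such a shift is not bounded here. With library totals only as the scaling, the median change was −0.17 at 100 kb and −0.16 at 10 kb. The middle 95% of 100 kb bins had log2 changes between −0.21 and 0.18, with a median absolute change of 0.05 and a median standard error of 0.07. For 97.51% of the 100 kb bins the 95% interval of the change lay within 0.5 log2 units of 0. At 10 kb that held within 1 log2 unit for 92.0% of bins and within 0.5 units for 48.2%, and the median half-width of the interval at 10 kb was 0.361. The change was in the same direction in all 6 matched pairs in 9 bins of 100 kb that were higher (0.896%) and 23 that were lower (2.29%), and in 92 (0.94%) and 159 (1.63%) bins of 10 kb.

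**Figure D1:**
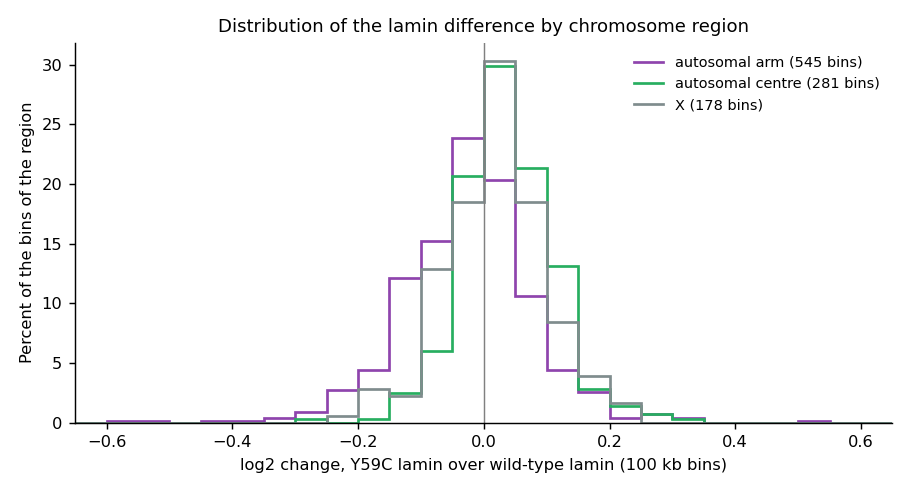
Histogram of the log2 change in GFP-Dam reads (Y59C lamin over wild-type lamin, x axis) over 100 kb bins, as a percent of the bins of each region (y axis), for 545 autosomal arm, 281 autosomal centre and 178 X chromosome bins. All 3 curves centre near 0, with the arms slightly to the left; the III bin with excess reads in Y59C cec-4 replicate 3 lies beyond the right edge.

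The change of lowest p was at eva-1, which encodes a transmembrane co-receptor for the axon guidance ligand SLT-1. The 10 kb bin I:14830001-14840000 holds almost all of eva-1 (14829732 to 14834841), the ncRNA F32A7.9, the small gene F32A7.8 and the start coordinate of metl-17. Its CPM were 670, 391 and 566 in the Y59C libraries and 516, 281 and 452 in the Y59C cec-4 libraries. They were 29.6, 23.4 and 33.6 in the GFP::LMN-1 libraries and 28.7, 39.1 and 37.0 in the GFP::LMN-1 cec-4 libraries. All 6 Y59C lamin libraries lay far above all 6 wild-type lamin libraries, with no overlap.

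The eva-1 bin had a log2 change of 3.88 (SE 0.17, 95% interval 3.53 to 4.23, edgeR adjusted p = 2.92e-10), a 14.8-fold rise that was seen in 6 of 6 pairs. It rose with cec-4 mutated (log2 3.55, adjusted p = 2.65e-07, edgeR) and with cec-4 intact (log2 4.22, adjusted p = 2.52e-08, edgeR). With all 24 libraries in the fit the change with cec-4 mutated was not called (adjusted p = 0.0663). The interaction of lamin with cec-4 was not called there (log2 −0.67, adjusted p = 0.826). The bin 10 kb before it changed by 0.45 and the bin 10 kb after it by 0.24 on the log2 scale, and neither passed the test (edgeR adjusted p = 0.952 for both). The bin 20 kb after it is that of unc-54. With 4409 and 4471 CPM in Y59C and Y59C cec-4 and 3483 and 4031 in GFP::LMN-1 and GFP::LMN-1 cec-4, it changed by 0.31 and did not pass either. Within 50 kb on either side the eva-1 bin alone was called, and in the other bins the Y59C lamin and the wild-type lamin libraries overlapped.

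**Figure D2:**
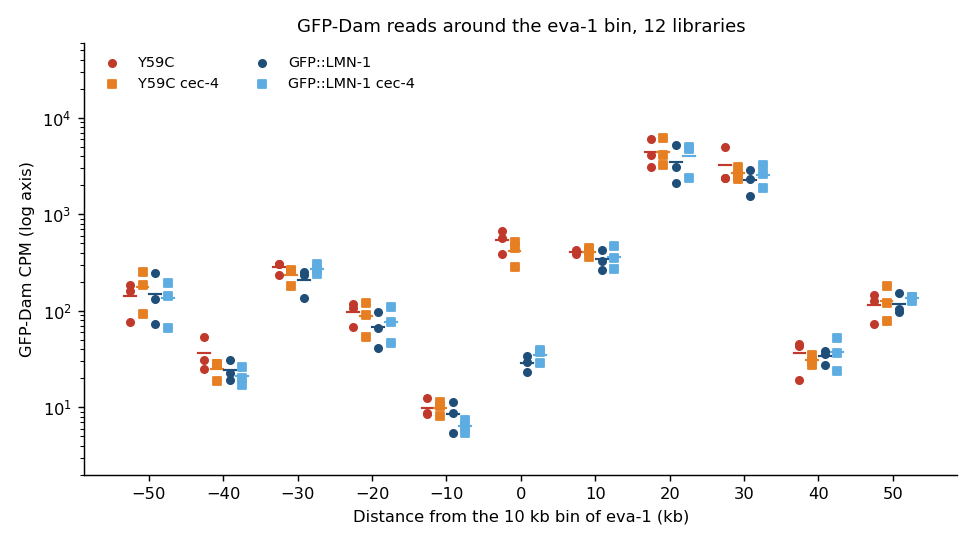
GFP-Dam CPM (log axis) in 10 kb bins at −50 to 50 kb from the eva-1 bin; each point is a library and each dash the mean of 3. At distance 0 the Y59C and Y59C cec-4 libraries (281 to 670) lie above the GFP::LMN-1 and GFP::LMN-1 cec-4 libraries (23.4 to 39.1), while in the other bins the groups overlap.

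The second bin called higher was III:2980001-2990000, with the genes Y55D5A.1 and Y55D5A.4. Its CPM were 42, 20.2 and 29 in Y59C and 36.5, 28.1 and 25.9 in Y59C cec-4, against 20.9, 15.1 and 14.5 in GFP::LMN-1 and 13.4, 10.3 and 13.6 in GFP::LMN-1 cec-4. Each Y59C lamin library was above its match, although the lowest Y59C library lay just under the highest GFP::LMN-1 library. The log2 change was 1.06 (SE 0.16, edgeR adjusted p = 0.0329, 6 of 6 pairs). DESeq2 and voom also called this bin (adjusted p = 2.84e-06 and 0.000226). In edgeR the adjusted p without the replicate block was 1.00, and with the matched pairs as the block it was 0.101. The call also ended with library totals only (0.342), with all 24 libraries in the fit (1.00), without any single library other than Y59C replicate 2 (adjusted p 0.0658 to 0.407 in edgeR), and without all of replicate 1 (0.595) or replicate 3 (0.938).

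The bin called lower was V:19700001-19800000, near the right end of chromosome V. It holds 26 protein-coding genes by midpoint, among them ani-3, an anillin family gene, the chemoreceptor genes srv-3 and srt-45, the F-box genes fbxa-131, fbxa-118 and fbxa-194, and the C-type lectin genes clec-49, clec-50 and clec-258. CPM were 214, 163 and 221 in Y59C and 200, 246 and 218 in Y59C cec-4. They were 213, 219 and 274 in GFP::LMN-1 and 374, 403 and 445 in GFP::LMN-1 cec-4. The GFP::LMN-1 cec-4 libraries stood above all 9 others, and the other 3 groups overlapped.

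The averaged change of that bin was −0.55 log2 units (SE 0.09, edgeR adjusted p = 0.0193, fold 0.682). It was −0.88 with cec-4 mutated (adjusted p = 0.00615, edgeR) and −0.23 with cec-4 intact (adjusted p = 0.437). DESeq2 and voom also called the averaged change (adjusted p = 1.39e-06 and 0.000352) and the change with cec-4 mutated (1.05e-08 and 2.15e-05). The interaction was −0.64 (SE 0.17), which was not called by edgeR (adjusted p = 0.664) or DESeq2 (0.146) and was called by voom (log2 −0.71, adjusted p = 0.0402). Without the replicate block the adjusted p of the averaged change was 0.256 and with the matched pairs as the block it was 0.356, and leaving out any 1 of the GFP::LMN-1 or GFP::LMN-1 cec-4 libraries gave an adjusted p of 0.0618 to 0.151 in edgeR. It was 0.0903 without Y59C replicate 3, 0.101 and 0.119 without Y59C cec-4 replicates 1 and 3, 1.00 without all of replicate 3 and 1.00 with all 24 libraries in the fit. The change in the cec-4 mutants was not called without the replicate block (0.103), with all 24 libraries (1.00) or, in edgeR, without GFP::LMN-1 cec-4 replicate 2 (adjusted p = 0.0886), Y59C cec-4 replicate 1 (0.0892), Y59C cec-4 replicate 3 (0.105) or all of replicate 3 (0.505). The next bin, V:19800001-19900000, with the insulin-like gene daf-28 and the chemoreceptor gene srw-38, changed by −0.55 (SE 0.11, adjusted p = 0.160, edgeR). DESeq2 called it lower (adjusted p = 0.000415), and so did voom (adjusted p = 0.0491). In the cec-4 mutants it was called lower by DESeq2 and voom (adjusted p 0.000272 and 0.00804) and not by edgeR (0.146).

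At 10 kb Y59C cec-4 was below GFP::LMN-1 cec-4 in a run of 16 tested bins (V:19670001-19830000), whose ends were set after the values were seen, so it has no test. The run stops at 1 bin too low in reads to test, and in the 5 bins after that one (V:19840001-19890000) Y59C cec-4 was again the lower. The right flank used below therefore holds bins of the same sign, and so does the left flank. In the left flank the bin V:19640001-19650000 changed by −0.77 in the cec-4 mutants, with 187 CPM in Y59C cec-4 and 323 in GFP::LMN-1 cec-4. For the averaged lamin effect that bin was not called by edgeR (adjusted p = 0.378) and was called lower by DESeq2 (adjusted p = 0.0249). Summed over the run, Y59C held 264 ± 60.04 CPM, Y59C cec-4 289 ± 33.3, GFP::LMN-1 298 ± 51.8 and GFP::LMN-1 cec-4 520 ± 46.1 (SD, n = 3 each). GFP::LMN-1 cec-4 was thus 1.75 times GFP::LMN-1 over the run, against 1.11 times in the left flank and 1.08 times in the right flank of equal length. Y59C cec-4 was 1.10 times Y59C over the same run. The libraries of Y59C cec-4 and of Y59C overlapped in these sums, and the GFP::LMN-1 cec-4 libraries lay above the GFP::LMN-1 libraries.

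**Figure D3:**
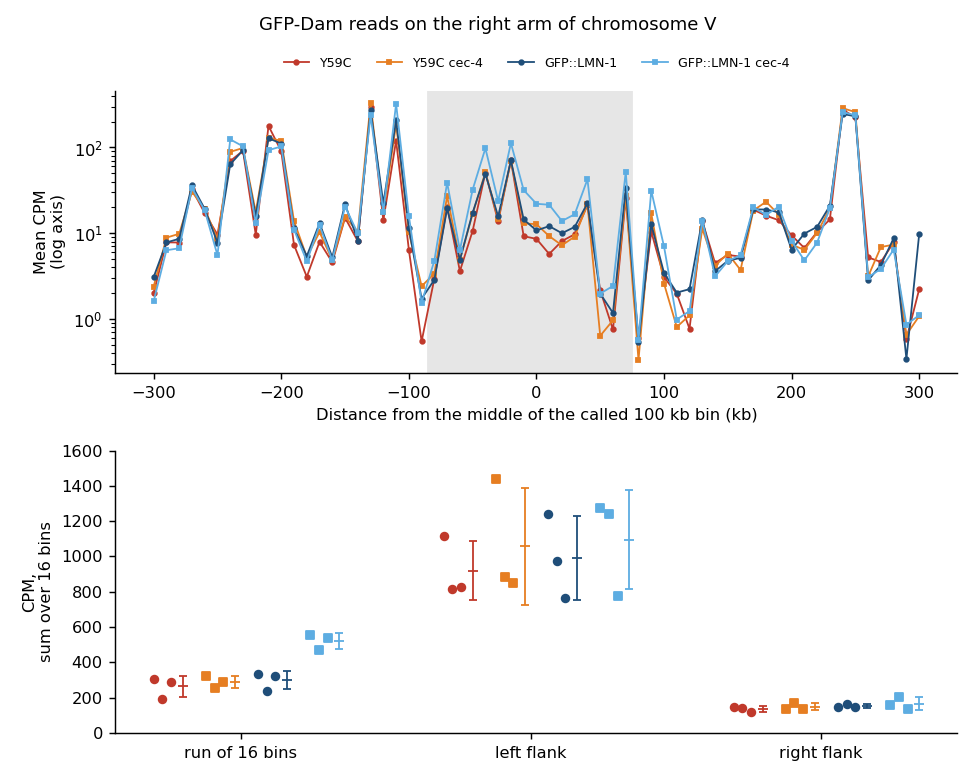
Top: mean GFP-Dam CPM (log axis) of the 4 groups in 10 kb bins around the called bin of chromosome V, with the run of 16 bins shaded. Bottom: sums over the run and over flanks of equal length, with each library, the mean and the SD (n = 3); in the run the GFP::LMN-1 cec-4 libraries (468 to 554) lie above the other 9 (195 to 333).

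One more bin was called in the cec-4 mutants, III:13140001-13150000 with the gene Y39E4B.10. CPM were 63.8, 95.0 and 41.4 in Y59C cec-4 against 17.3, 23.7 and 21.2 in GFP::LMN-1 cec-4, which did not overlap. With cec-4 intact they were 52.9, 60.03 and 49.6 in Y59C against 50.5, 103 and 66.1 in GFP::LMN-1. The GFP::LMN-1 cec-4 libraries were again the ones apart, here as the lowest. The change in cec-4 mutants was 1.65 log2 units (SE 0.23, edgeR adjusted p = 0.00723) and 0.961 was the adjusted p without the replicate block. It was not called in edgeR without Y59C cec-4 replicate 1 or 2 (0.137 and 0.0849) or GFP::LMN-1 cec-4 replicate 1 or 2 (0.180 and 0.175), without all of replicate 1 or 2 (0.205 and 0.0896), with library totals only (0.0904) or with all 24 libraries in the fit (1.00). The interaction was 2.02 (SE 0.31, adjusted p = 0.0601).

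The other regions singled out by their p did not pass in edgeR, and some passed in DESeq2. The bin II:6700001-6800000, with the cuticle collagen genes dpy-10 and dpy-2, averaged 1257 and 1256 CPM in Y59C and Y59C cec-4, against 1108 and 1048 in GFP::LMN-1 and GFP::LMN-1 cec-4 (log2 0.23, SE 0.05, edgeR adjusted p = 0.241). It was higher in 6 of 6 pairs, and the adjusted p was 0.0206 in DESeq2 and 0.180 in voom. The 10 kb bin of the chemoreceptor gene srw-60 averaged 8.66 and 13.6 in Y59C and Y59C cec-4, against 25.8 and 20.4 in GFP::LMN-1 and GFP::LMN-1 cec-4 (log2 −1.02, SE 0.22, edgeR adjusted p = 0.400). It was lower in 6 of 6 pairs, and the adjusted p was 0.0178 in DESeq2 and 0.230 in voom.

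With cec-4 mutated, 1 of 1004 bins of 100 kb was called lower (0.0996%) and 2 of 9783 bins of 10 kb higher (0.0204%), those of eva-1 and Y39E4B.10, by edgeR. At 10 kb DESeq2 called 3 higher and 2 lower there, and voom 3 higher and 3 lower. With cec-4 intact alone, 0 bins of 100 kb were called in either direction (0%) by edgeR, DESeq2 or voom. There 125 bins had an unadjusted edgeR p under 0.05 (12.5%), against 21 with cec-4 mutated (2.09%). At 10 kb these counts were 746 (7.63%) and 277 (2.83%). With cec-4 intact 1 bin of 10 kb, that of eva-1, was called higher by edgeR (0.0102%). At 10 kb with cec-4 intact DESeq2 called 2 bins higher and 3 lower, and voom 3 higher and 1 lower. Across 1004 bins the change with cec-4 mutated and the change with cec-4 intact had a Pearson correlation of 0.05, and across 9783 bins −0.02. These are descriptions over bins, and the 2 contrasts share no library. The interaction called 0 bins of either size in edgeR (0%), against 0 and 4 in DESeq2 and 1 and 5 in voom. At an unadjusted edgeR p under 0.05 it had 66 bins of 100 kb (6.57%) and 583 of 10 kb (5.96%). The effect of cec-4, averaged over lamins, called 0 bins of either size in edgeR (0%), against 1 and 4 in DESeq2 and 1 and 5 in voom. Unadjusted, it had 69 bins of 100 kb (6.87%) and 539 of 10 kb (5.51%) in edgeR.

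The ribosomal DNA on chromosome I took the largest share of reads, and its bin was singled out after its values were seen. The bin I:15060001-15070000 holds the rRNA genes rrn-1.1, rrn-2.1 and rrn-3.1. Its 100 kb bin held 12.2, 13.6 and 27.2% of the reads of the Y59C libraries and 14.8, 12.4 and 30.0% of the Y59C cec-4 libraries. It held 9.94, 6.62 and 25.7% of the reads of the GFP::LMN-1 libraries and 11.9, 11.2 and 24.2% of the GFP::LMN-1 cec-4 libraries. Outside the III bin with excess reads, the share in Y59C cec-4 replicate 3 was 37.9%. The share was higher with Y59C lamin in 6 of 6 pairs and differed more between rounds, replicate 3 being highest in each strain. The fitted log2 change of the 100 kb bin was 0.55 with an edgeR adjusted p of 0.813.

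Arms and centres were then compared by mean log2 reads over 100 kb bins. Arms minus centres of the 5 autosomes averaged −0.91 ± 0.12 in the Y59C lamin libraries and −0.84 ± 0.06 in the wild-type lamin libraries (SD, n = 6 each). The difference over matched pairs was −0.07 ± 0.09, lower in 5 of 6, with an exact sign-flip p of 0.125 (two-sided; the smallest this design allows is 0.03125) and 0.25 adjusted over the 4 such values. The pairs with cec-4 mutated gave 0.11, −0.10 and −0.05, and those with cec-4 intact gave −0.11, −0.13 and −0.13. The pair of Y59C cec-4 replicate 1 was the one above 0. Of the arm bins 60.4% had a negative change, against 29.9% of the centre bins and 37.1% of the X bins.

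Of 18 zones, a left arm, centre and right arm for each chromosome, 2 fell in Y59C lamin libraries by limma. Limma pooled the spread and gave all 18 zones the same SE, so neither the SE nor the p-value measures the spread of a single zone. The SD over the 6 matched pairs was 0.07 in the right arm of V and 0.08 in the left arm of II. The right arm of V averaged −1.48 in Y59C lamin and −1.39 in wild-type lamin libraries, a difference of −0.09 (SE 0.03, limma adjusted p = 0.0158). Its pairs gave −0.07, 0.01 and −0.06 with cec-4 mutated and −0.10, −0.12 and −0.19 with cec-4 intact. The left arm of II averaged −0.99 in Y59C lamin and −0.91 in wild-type lamin libraries, a difference of −0.08 (SE 0.03, limma adjusted p = 0.0158). Its pairs gave −0.02, −0.01 and −0.03 with cec-4 mutated and −0.08, −0.19 and −0.17 with cec-4 intact.

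On a linear scale these zones changed by −5.91% and −5.57%. The larger values were those of the cec-4 intact pairs, but the difference between cec-4 states was not tested for zones. Neither zone was called without the replicate block, with the median over bins or with 10 kb bins, and the exact sign-flip p adjusted over the 18 zones was 0.562 for both. Leaving out replicate 1 gave 3 called zones, and leaving out replicate 2 or replicate 3 gave 0 (limma adjusted p 0.0519 and 0.136 for the right arm of V, 0.284 and 0.136 for the left arm of II). All 6 centres had values above 0, from 0.02 to 0.04, and 11 of the 12 arms had values below 0, the exception being the right arm of X (0.01). Zone values are relative to the median bin of their library, so lower arms and higher centres are not separate results.

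**Figure D4:**
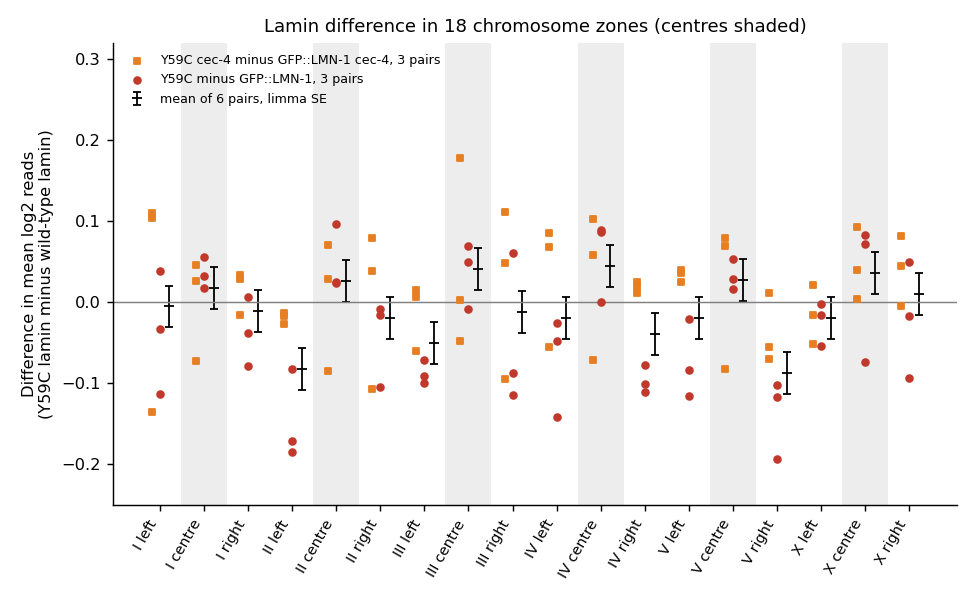
Difference in mean log2 reads (Y59C lamin minus wild-type lamin) in 18 zones; points are matched pairs, with cec-4 mutated or intact, and the black marks are the mean of 6 with limma's standard error, which was pooled and is the same for every zone. Centres are shaded; the right arm of V (−0.09) and the left arm of II (−0.08) lie lowest.

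The share of reads on X depended on the bins of excess reads. The log2 share of reads that lay on X averaged −2.45 ± 0.30 with Y59C lamin and −2.31 ± 0.11 with wild-type lamin (SD, n = 6 each). Every matched pair was lower with Y59C lamin, by −0.14 ± 0.23 on average, and the exact sign-flip test gave 0.03125, or 0.125 once adjusted over the 4 values. The pair with Y59C cec-4 replicate 3, the library with excess reads on III in the 100 kb counts alone, gave −0.61. The other pairs gave −0.10 to −0.01, and without all of replicate 3 the mean was −0.05. The bins of excess reads, 3 of 100 kb that took more than 1% of the reads of a library, include that of ribosomal DNA. Without them the mean was 0.01 with an exact p of 0.281. A higher share of ribosomal DNA leaves a lower share for X, so these shares are not separate results. Gene-dense minus gene-poor bins differed by −0.01 ± 0.05 (exact p = 0.656), and the mitochondrial share by −0.32 ± 1.07 (exact p = 0.469) from 0 to 14 reads.

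Gene lists were followed through the 10 kb bins of their genes, and none of the 28 lists held a bin called in either direction by edgeR or voom, where edgeR called 0.0204% of all bins higher and 0% lower. DESeq2 called 1 bin of these lists, that of the chemoreceptor gene srw-60, as lower (adjusted p = 0.0178). The median log2 change over all bins was 0.00. With library totals alone as the scaling it was −0.16, so directions of lists and genes are relative to all bins. The genes of the constructs and mutations did not pass the test. The bin of lmn-1, the lamin gene, averaged 132 and 139 CPM in Y59C and Y59C cec-4 against 122 and 179 in GFP::LMN-1 and GFP::LMN-1 cec-4 (log2 −0.08, SE 0.22). GFP::LMN-1 cec-4 replicate 2 held 307 CPM and the other 2 libraries of that strain 118 and 111, and without replicate 2 of that strain the log2 change was 0.23. The bin of emr-1, which encodes emerin, changed by −0.02 (SE 0.14), baf-1, encoding a chromatin bridging partner of emerin, by 0.11 (SE 0.13), cec-4 by 0.02 (SE 0.12), unc-119 by −0.02 (SE 0.18), hsp-16.41 by −0.18 (SE 0.14) and myo-3 by 0.22 (SE 0.14). A 10 kb bin spans more than cec-4, so its level does not check the deletion.

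Muscle genes stood at the top of the lists by median. The 54 bins of body wall muscle genes had a median change of 0.12, with 0 called. Their pair medians were 0.17, −0.28 and 0.14 with cec-4 mutated and 0.10, 0.21 and 0.47 with cec-4 intact, above 0 in 5 of 6 pairs. The smallest p in the list was at unc-98, which encodes a protein of muscle attachment sites, with 134 and 86.3 CPM in Y59C and Y59C cec-4 against 80.5 and 71.5 in GFP::LMN-1 and GFP::LMN-1 cec-4 (log2 0.52, SE 0.16, edgeR adjusted p = 0.952). Genes used in most cells had like medians, 0.11 for 21 housekeeping bins and 0.08 for 75 bins of ribosomal protein genes. The pair of Y59C cec-4 replicate 2 was negative in all 3 lists (−0.28, −0.28 and −0.19). The pharyngeal muscle list had a median of 0.00.

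Genes of the nuclear envelope, of heterochromatin and of muscle attachment were also near 0. The 36 bins of nuclear envelope and anchor genes had a median of 0.05, and the smallest p was at the nuclear pore gene npp-6 (log2 −0.32, SE 0.12). The 29 bins of H3K9 methylation and heterochromatin genes had a median of 0.04, with jmjd-2, a histone demethylase gene, at 0.70 (SE 0.24). The jmjd-2 change was 1.08 with cec-4 intact and 0.32 with it mutated. Y59C replicate 2 held 429 CPM in that bin, and without this library the averaged log2 change was 0.29. The basement membrane and muscle attachment list (22 bins) had 0.07, heat shock genes (20 bins) 0.06 and dosage compensation genes (16 bins) 0.08. All edgeR adjusted p-values of the genes named here were 0.952.

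The large gene families of the arms had medians a little below 0. It was −0.06 for 809 bins of chemoreceptor genes, −0.06 for 208 bins of F-box genes, −0.06 for 171 bins of C-type lectin genes and −0.08 for 45 bins of MATH-BATH genes. Of the chemoreceptor bins 31 were lower in 6 of 6 pairs (3.83%, against 1.63% of all bins and 2.11% of arm bins) and 4 were higher (0.494%, against 0.94% of all bins and 0.724% of arm bins). The pair medians of the MATH-BATH genes were above 0 in 4 of 6 pairs. The bin of clec-248, a C-type lectin gene, averaged 36.7 and 28.8 CPM in Y59C and Y59C cec-4 against 15.0 and 11.9 in GFP::LMN-1 and GFP::LMN-1 cec-4 (log2 1.18, SE 0.33, edgeR adjusted p = 0.952). Its Y59C libraries held 13.7, 90.8 and 5.63 CPM, and without the high one, Y59C replicate 2, the log2 change was 0.71. Nuclear hormone receptor genes (199 bins) had −0.01, led by nhr-216 at −0.55 (SE 0.14).

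Lists of other tissues ranged from −0.05 to 0.03. Intestine genes (32 bins) had −0.05, neuron genes (46 bins) −0.05, hypodermis genes (25 bins) −0.01 and germline genes (39 bins) 0.03. Among cuticle collagens (149 bins), cytochromes P450 (54), UDP-glucuronosyltransferases (52), insulin-like genes (27), histones (21), ceh homeobox genes (57), neuropeptides (101), twk potassium channels (44) and developmental transcription factors (38), list medians lay between −0.03 and 0.06.

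**Figure D5:**
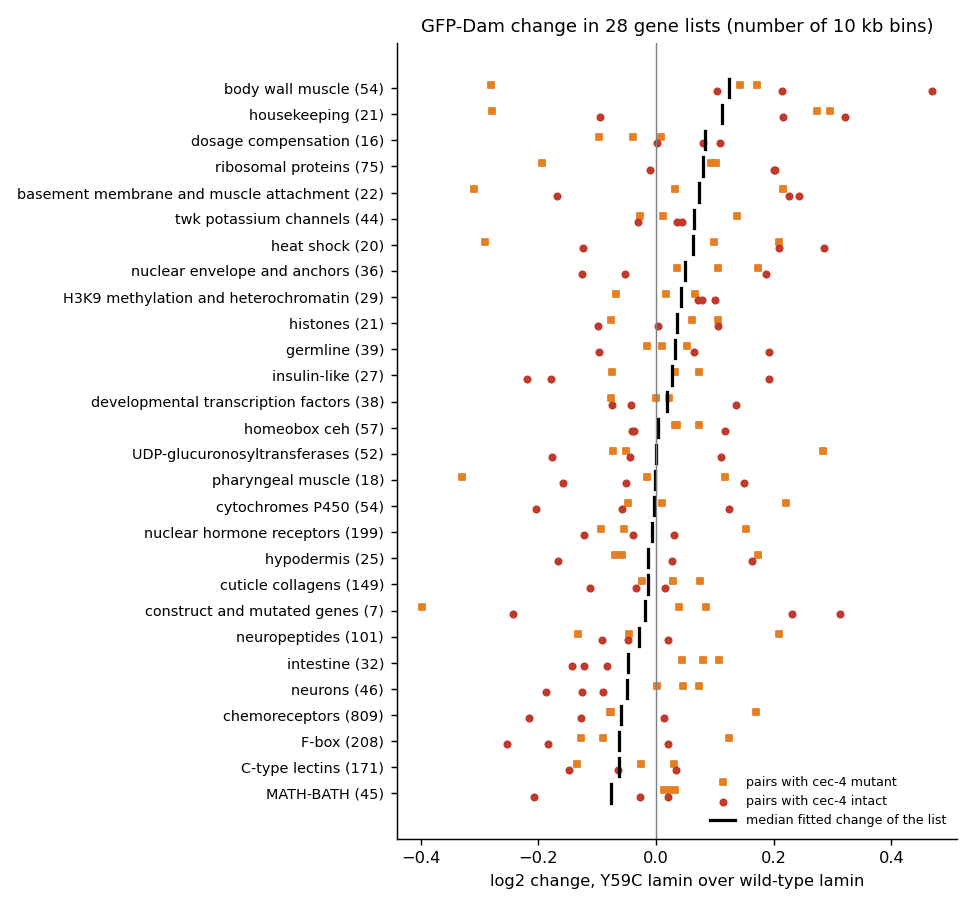
log2 change in GFP-Dam reads (Y59C lamin over wild-type lamin) in 28 gene lists, with the number of 10 kb bins in brackets. Points are medians of single matched pairs and bars the median fitted change; most lists have pairs on both sides of 0, and body wall muscle lies at the top (0.12).

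The regions called in GFP-Dam were also read in the Dam-EMR libraries, which come from other strains with the same lamin and cec-4 genotypes, grown in the same rounds. The eva-1 bin held 557, 84.4 and 141 CPM in Dam-EMR of Y59C and 408, 21.1 and 30.6 in Dam-EMR of Y59C cec-4. It held 525, 35.9 and 80.8 in Dam-EMR of GFP::LMN-1 and 30.0, 18.3 and 63.7 in Dam-EMR of GFP::LMN-1 cec-4. Replicate 1 was high in 3 of the 4 strains, the groups overlapped, and the change was not called (log2 0.67, SE 0.58, edgeR adjusted p = 0.998). These rest on 6 to 471 reads per library. The V bin changed by 0.23 (SE 0.32, adjusted p = 0.994) in Dam-EMR, and its 3 GFP::LMN-1 cec-4 libraries held 718, 215 and 247 CPM. Over 1004 bins of 100 kb the lamin changes of the GFP-Dam and the Dam-EMR libraries had a Pearson correlation of 0.00, and over 9160 bins of 10 kb one of 0.07. Some Dam-EMR libraries held few reads. At 10 kb 1 read was 23.4 CPM in Dam-EMR of Y59C replicate 3 and 5.83 in Dam-EMR of Y59C cec-4 replicate 1. The correlations therefore cannot tell unlike lamin changes from a lack of reads.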

How the data were processed

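The authors deposited raw counts of mapped reads for fixed ce11 bins (100 kb and 10 kb), unnormalized, one column per library; the build is given per the submitters' processing notes, and the aligner is not given in the sources used here. Per the labels, 200 ng of genomic DNA was cut with DpnI for 6 h, and methylated fragments were amplified. The deposited log2 tables hold Dam-EMR over GFP-Dam ratios and were not used. The 12 GFP-Dam libraries were fitted with edgeR 4.0.16 in R 4.3.3 (quasi-likelihood, TMM factors, filterByExpr) with 4 groups and replicate as a block, and bins with an adjusted p under 0.05 were called. Replicate numbers pair the libraries, since the design text states that strains were grown in parallel in each replicate. Same-numbered libraries deviated from their group means with a median correlation of 0.63 over 100 kb bins, and others with −0.37. Deviations within a group cancel out, so the second value largely follows from the first. CPM use TMM-scaled totals. Total counts per library limit precision, and as fragments were amplified without molecular barcodes, intervals do not cover copies of one fragment. Zones (arms: the outer 33% at each end; 1 read added before log2) were tested with limma 3.58.1, and single values with exact sign-flip tests over 6 pairs. DESeq2 1.42.0, limma voom, other scalings, blocks and filters, and fits without single libraries or replicates were alternatives. A gene belongs to the bin of its midpoint in the RefSeq WBcel235 table, which placed 19655 of 19971 protein-coding genes in tested bins. Named bins were those called or, with fewer than 3 called, the 3 of smallest p in each direction; of each list, the gene whose bin had the smallest p, and the construct genes always. Members and lists were chosen with earlier results of these data known. The fitting was tested on simulated counts. Tests of GATC sites and GC content were not run, since no genome sequence was used here.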

Additional observations from a re-analysis of the deposited data

Results flagged for a closer look

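Values here were picked out because 1 of the 6 matched pairs lay far from the other 5 (a gap test that chance passes in about 1 of 20 groups) or because the 3 pairs with cec-4 intact and the 3 with cec-4 mutated lay on opposite sides of 0. The differences between cec-4 states were not tested.

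The pair of Y59C cec-4 replicate 3 stood apart at a 100 kb bin of chromosome III, with a log2 difference of 7.27, and in the X share, with −0.61. That III bin took 20.9% of the library's reads in the 100 kb counts, an excess that the 10 kb counts did not hold. The pair of Y59C cec-4 replicate 1 stood apart in arms minus centres, at 0.11, and in the centre of chromosome I, at −0.072. The pair of Y59C replicate 3 stood apart in the median of the MATH-BATH genes, at −0.21. What these pairs share beyond the values given was not tested.

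The right arm of IV averaged 0.02 in the cec-4 mutant pairs and −0.10 in the intact pairs, a difference of 0.115. The left arm of V averaged 0.03 in the mutant pairs and −0.07 in the intact pairs, a difference of 0.11. Pair medians of the intestine genes were 0.11, 0.04 and 0.08 with cec-4 mutated and −0.08, −0.12 and −0.14 with it intact, a difference in means of 0.19. Those of the neuron genes were 0.07, 0.05 and 0.00 with cec-4 mutated and −0.09, −0.13 and −0.19 with it intact, a difference in means of 0.17.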

How the results depend on the processing

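The eva-1 bin was called at 10 kb for the averaged lamin effect, with log2 changes of 3.63 to 4.10, under all alternatives run, including the fits without single libraries; the other called bins were not. Without the replicate block edgeR called 0 bins of 100 kb and 1 of 10 kb for the averaged lamin effect, and 0 and 1 in the cec-4 mutants. With matched pairs as the replicate block it called 0 and 1, and with all 24 libraries in the fit 0 and 1 (0 and 0 in the cec-4 mutants). With library totals only, which moved the median of all bins to −0.17 at 100 kb and −0.16 at 10 kb, edgeR called 2 bins of 100 kb for the lamin effect, 2 and 1 bins (100 kb and 10 kb) in the cec-4 mutants, 1 of 100 kb for the interaction and 1 of 100 kb for the cec-4 effect; X:13700001 then turned to −0.018, baf-1 to −0.039 and cec-4 to −0.14. RLE size factors called 1 bin of 10 kb for the interaction. DESeq2 called 3 and 6 bins (100 kb and 10 kb) for the lamin effect, 5 of 10 kb with cec-4 intact, 2 and 5 with it mutated, 4 of 10 kb for the interaction, and 1 and 4 for the cec-4 effect. Voom with sample weights called 2 and 3 bins for the lamin effect, and 4 of 10 kb with cec-4 intact. It called 2 and 6 with cec-4 mutated, 1 and 5 for the interaction, and 1 and 5 for the cec-4 effect. Voom also turned emr-1 to 0.089 and lmn-1 to 0.18. The unc-119 bin turned to 0.0025 without the replicate block. The cause of these turns was not tested.

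The X share was 0.0073 (exact p = 0.281) without bins of excess reads and −0.14 (exact p = 0.385) without the replicate block, as a permutation over all 12 libraries. Zones called were 0 with 10 kb bins, with the median over bins and without the replicate block. With 10 kb bins the zones I left (0.0056), I right (0.013), III right (0.0062) and X left (0.0023) turned above 0. With the median over bins II right (0.010), III right (0.023), IV left (0.00083), V left (0.032) and X left (0.0022) did so.

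Leaving out replicates or single libraries, the called bins of 100 kb and 10 kb were 0 to 1 and 1 to 2 for the lamin effect, 0 to 1 and 1 to 2 with cec-4 mutated, 0 to 0 and 1 to 2 with it intact, 0 to 0 and 0 to 1 for the interaction, and 0 to 1 and 0 to 0 for the cec-4 effect. Zones called were 0 to 3. The X share ranged from −0.19 to −0.053, arms minus centres from −0.10 to −0.04, gene-dense bins from −0.028 to 0.0079 and the mitochondrial share from −0.55 to −0.10. The value of gene-dense bins thus changed sign. So did zones I left (−0.043 to 0.034), III right (−0.046 to 0.033), III centre (−0.00084 to 0.075) and X right (−0.018 to 0.027). Bins that changed sign were III:6700001 (−0.013 to 2.89), emr-1 (−0.24 to 0.21), lmn-1 (−0.37 to 0.38), unc-119 (−0.22 to 0.10) and cec-4 (−0.10 to 0.14). Where 1 library remained in fewer than 3, its spread was taken from the pooled fit. The median half-width of the 95% interval was 0.152 log2 units at 100 kb and 0.361 at 10 kb.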
